A study of Mus musculus with 4 samples.

Results

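The genes described here are 7 that macrophages are known to express in their alternatively activated state: Retnla, Mrc1, Mgl2, Chil3, Clec10a, Cd209d and Il4ra. They were taken by name from the 32285 genes of the expression matrix, together with the antibody against CD124, the protein of Il4ra, and all 7 had UMIs in each of the 4 libraries. The cells came from the ankle joint synovium of bone marrow chimeric mice, in which CD45.1 B6 marrow had been given to CD45.2 B6 recipients whose ankles were shielded from the irradiation. The CD45.1 variant is therefore taken to mark cells of the donor marrow and CD45.2 cells of the recipient. Arthritis was induced with K/BxN serum (STIA). The baseline library was of day 0 and no treatment, and the arthritis libraries were of day 7 at the peak, of day 14 at the plateau and of day 56 at resolution, with 1 library for each stage. RNA and surface antibodies were read from the same cells, sorted as live CD45+CD11b+ and negative for Ly6G, SiglecF, CD64, MHCII, Ly6c and CD177. Titles of the 3 arthritis samples also carry the tag Clo-lip, which the labels do not explain and which cannot be told apart from arthritis. The number of mice behind a library was not given in the sources used here.

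Interleukin-4 and interleukin-13 bind receptors that share the Il4ra chain and act through the transcription factor STAT6, and macrophages exposed to them are called alternatively activated. Such cells are known for a set of secreted proteins and sugar-binding receptors. Retnla (RELM alpha) is a secreted resistin-like protein, and Chil3 (Ym1) is a secreted chitinase-like protein that immature monocytes and neutrophils also make. Mrc1 is the mannose receptor CD206, Mgl2 (CD301b) and Clec10a (CD301a) are neighbouring galactose-type lectins, and Cd209d is a relative of the dendritic cell lectin DC-SIGN. In joints and other tissues, long-lived resident macrophages are known to carry Mrc1 also without inflammation.

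UMIs (unique molecular identifiers) count molecules. A barcode was kept when it held 300 genes or more and no more than 10% of its UMIs were mitochondrial, which left 1071 cells at baseline, 5941 at peak, 2828 at plateau and 4611 at resolution. Their median depth was between 4912 UMIs at resolution and 8250 at peak, and pairs of libraries shared between 0 and 9 barcodes. CD45.1 cells made up 75.4% of the cells at baseline, 93.9% at peak, 84.9% at plateau and 70.5% at resolution, and CD45.2 cells numbered 190, 219, 239 and 730. The sort did not hold only the labelled cells: clusters matching neutrophils (114 cells, 58 of them at baseline), fibroblasts (418 and 249 cells), type 2 dendritic cells (262 cells), basophils (63 cells, all at peak), NK cells (59) and B cells (33) were present. The NK-like cluster passed 8 of 8 NK cell markers but also 7 T cell markers, and Cd3g was among its leading genes. Larger clusters also carried RNA of gated proteins. Ly6c2 was a passing marker of monocyte-like clusters 5 and 9 (992 and 727 cells), and H2-Aa, H2-DMb1 and H2-Ab1 were among the leading genes of cluster 0 (1516 cells). Macrophage-like clusters 2 and 11 held 1338 and 611 cells. Surface levels of the gated proteins were not compared. With 1 library for each stage there is no test between stages. Levels by stage are given as CPM (counts per 1000000) of that library's gene UMIs, with exact Poisson 95% intervals that cover counting error only.

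Because Retnla and Chil3, the secreted members, were high in different cells and at different stages, the 250 bases before their RefSeq start sites (GRCm38.p6) are shown, 5′ to 3′ on the strand of the gene. STAT6 is known to bind TTCNNNNGAA, and other STAT factors TTCNNNGAA. The capitals mark the match to either. The Retnla window is chr16:48842359-48842608 on the plus strand and the Chil3 window is chr3:106167565-106167814 on the minus strand.
Retnla: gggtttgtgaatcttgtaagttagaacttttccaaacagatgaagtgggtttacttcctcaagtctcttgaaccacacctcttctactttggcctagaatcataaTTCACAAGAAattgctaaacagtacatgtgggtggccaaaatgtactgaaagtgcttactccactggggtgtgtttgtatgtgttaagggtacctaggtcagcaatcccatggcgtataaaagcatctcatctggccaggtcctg
Chil3: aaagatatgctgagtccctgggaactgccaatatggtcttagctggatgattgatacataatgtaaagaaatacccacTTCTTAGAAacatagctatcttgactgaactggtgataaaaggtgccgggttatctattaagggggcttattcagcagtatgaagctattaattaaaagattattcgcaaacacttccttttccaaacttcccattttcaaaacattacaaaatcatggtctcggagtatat
The match before Retnla is TTCACAAGAA at chr16:48842464-48842473, 145 bases upstream of the start, and the one before Chil3 is TTCTTAGAA at chr3:106167728-106167736, 172 bases upstream. Both motifs read the same on the opposite strand, so 1 search covers both strands, and no TTC can begin a match to both. Within windows from 250 bases before to 50 after the start, 6.95% of 32851 mouse windows held TTCNNNNGAA and 8.3% held TTCNNNGAA. Of the 6 members with a window, Retnla alone held the first and Chil3 alone the second. Of 19 other target genes with a window, 4 held the first (Ccl17, Pdcd1lg2, Cd36, Il1rn) and 2 the second (Ccl17, Il1r2). A match describes the letters of the window and is no measure of binding.

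Of the 92 antibodies of the panel, CD124 reads the Il4ra protein and CD301b reads the Mgl2 protein. Their oligonucleotide barcodes, by which the sequencer told them apart, are shown to identify the protein readouts used here.
CD124: gaaccgtagtataac
CD301b: cttgccttgcgattt

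Il4ra, the receptor chain, had its highest level at peak. Its level was 24.6 CPM at baseline, 80.6 (78.3 to 82.9) at peak, 62.4 at plateau and 32.7 at resolution. Peak was 3.27-fold above baseline (2.91 to 3.7), and the plateau to peak and resolution to baseline differences were each under 2-fold. After every cell was thinned to 2000 UMIs, 5.87% of cells at baseline, 14% at peak, 13.8% at plateau and 6.29% at resolution had an Il4ra UMI. Il4ra was spread over many clusters: it read 105 CPM in monocyte-like cluster 9 and 90.4 CPM in unnamed cluster 0, led by Aif1, Apoe and H2-Aa. The osteoclast-like cluster 10 read 28.5 CPM. Il4ra lies at chr7:125552271-125579474.

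The CD124 antibody followed the same order of stages at its top, and it is given per 10000 UMIs of all other antibodies. It read 9.29 (8.89 to 9.71) at baseline, 26.2 at peak, 11.3 at plateau and 3.88 at resolution. Peak was again the highest library, but resolution stood under baseline in antibody and not in RNA. At peak, cells with no Il4ra UMI held a mean of 1.94 CD124 UMIs, cells with at least 1 held 3.74, and the 102 cells with at least 5 held 10.5. Per 10000 other antibody UMIs these 3 groups read 21.3, 30.9 and 56.3. On that scale cells without and with an Il4ra UMI read 10.5 and 10.2 at baseline, 10.1 and 13.4 at plateau, and 3.91 and 3.96 at resolution. The correlation across cells was taken between log2 values of Il4ra CPM and of CD124 per 10000 other antibody UMIs. Within libraries it ran from 0.0471 at resolution to 0.174 at peak, a description over cells that share a library and differ in depth. Barcodes with over 10 times the library's median of antibody UMIs were left out of this correlation and of the values by Il4ra UMI. NK-like and B-like cells together read 8.59, 15.5, 0 and 5.84 CD124 UMIs per 10000 from baseline to resolution, over 21, 29, 8 and 34 cells.

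Mrc1, the mannose receptor, was lower at peak and plateau than at baseline over all cells, and highest at resolution. It read 81.5 CPM (76.5 to 86.8) at baseline, 47.3 at peak, 26.1 at plateau and 148 (144 to 153) at resolution. No interval overlapped another, and resolution was 5.67-fold above plateau. The share of cells with an Mrc1 UMI after thinning was 11.3%, 6.53%, 5.32% and 18.3% in the same order. In CD45.1 cells alone Mrc1 was higher at peak than at baseline, at 40.7 against 31.3 CPM. Mrc1 lies at chr2:14229414-14332023.

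Mgl2 had the largest stage ratio of the 7 genes. It read 33.4 CPM at baseline, 3.7 at peak, 1.59 at plateau and 321 (314 to 328) at resolution, from 399, 217, 47 and 8698 UMIs. Peak was 9.02-fold below baseline (7.63 to 10.7), resolution was 200-fold above plateau (152 to 275) and 9.61-fold above baseline (8.7 to 10.7). In thinned cells, 3.34% held an Mgl2 UMI at baseline, 0.382% at peak, 0.249% at plateau and 16.9% at resolution. No NK-like or B-like cell held an Mgl2 UMI in any library, so the share at resolution was not a level common to all cells. Mgl2 (chr11:70130125-70137542) and Clec10a (chr11:70166623-70170836) are close copies that lie side by side, and how the deposited counts divided reads between them is uncertain.

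Over all cells, Clec10a varied least of the 7. Its levels were 23.4, 24, 13.1 and 30.9 CPM from baseline to resolution, and the baseline and peak intervals overlapped. The only stage contrast past 2-fold over all cells was resolution against plateau, 2.35-fold higher. In CD45.2 cells Clec10a was 14.8-fold lower at plateau than at peak and 10.9-fold higher at resolution than at plateau, with 6 UMIs at plateau. Peak against baseline was at 0.04 on the log2 scale, beside -3.17 for its neighbour Mgl2. Without the clusters of other named types, the type 2 dendritic-like cluster among them, Clec10a read 26.7 CPM at baseline and 17.2 (16.1 to 18.4) at peak, and the intervals did not overlap.

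Cd209d was the scarcest member, with 87, 180, 11 and 696 UMIs. It read 7.28 CPM at baseline, 3.07 at peak, 0.372 (0.186 to 0.665) at plateau and 25.7 (23.8 to 27.7) at resolution. Resolution stood 66.1-fold above plateau, with an interval of 38.4 to 139 that reflects the 11 plateau UMIs, and 3.51-fold above baseline. Cd209d lies at chr8:3871824-3878548.

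Retnla, the secreted resistin-like protein, ranged from near absence in arthritis to the highest level at resolution. It read 244 CPM (235 to 253) at baseline, 8.98 at peak, 4.93 at plateau and 641 (632 to 651) at resolution. Peak was 27.2-fold below baseline (24.8 to 29.9), and resolution was 130-fold above plateau (110 to 154) and 2.63-fold above baseline. Cells with a Retnla UMI numbered 56 at baseline, 22 at peak, 7 at plateau and 593 at resolution, or 5.23%, 0.37%, 0.248% and 12.9% of cells. After thinning the shares were 3.74%, 0.2%, 0.208% and 9.41%. Among NK-like and B-like cells, 1 cell at resolution held a Retnla UMI and none did in the other libraries, at median depths of 5158, 5739, 2499 and 2651 UMIs. Retnla lies at chr16:48842609-48844461.

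A few cells carried most of the Retnla outside resolution. At baseline 1 barcode, a CD45.2 cell, held 1083 of the 2921 Retnla UMIs (37.1%), and the 10 highest held 84.9%. At peak and plateau the 10 highest held 96.8% and 100%. At resolution the highest barcode held 3.11% and the 10 highest 18.7%. The baseline and arthritis levels of Retnla are thus sums over few cells, which the Poisson interval does not cover. Mgl2 was less concentrated, with 62.7% of baseline UMIs and 6.76% of resolution UMIs in the 10 highest cells.

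**Figure D1:**
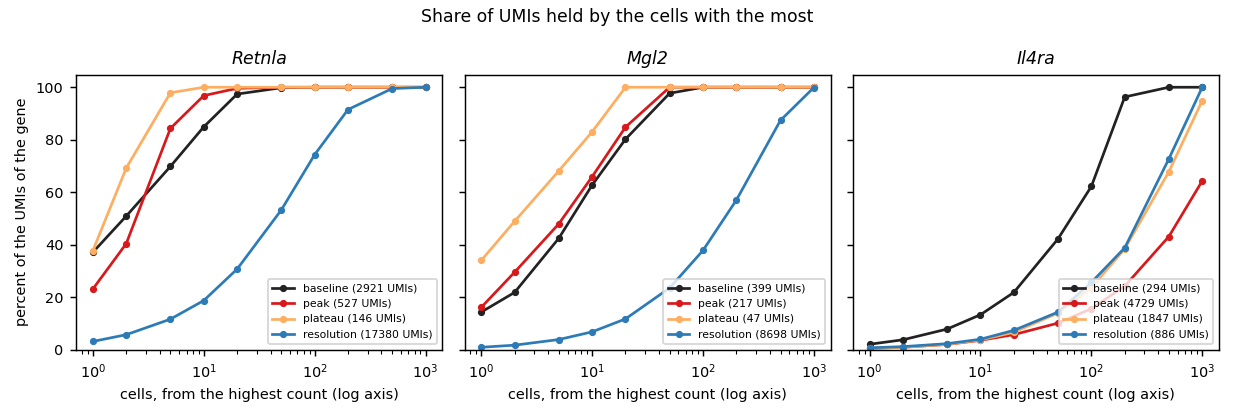
Share of the UMIs of Retnla, Mgl2 and Il4ra in a library (y axis, percent) held by the cells with the most UMIs of that gene (x axis, number of cells, log scale), 1 line for each stage. The Retnla lines of baseline, peak and plateau rise steeply, with 84.9% to 100% in 10 cells, while the resolution line reaches 18.7% there.

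Chil3 (chr3:106147554-106167564), the chitinase-like protein, went its own way. It read 615 CPM (601 to 630) at baseline, 640 (633 to 646) at peak, 102 at plateau and 72.4 (69.3 to 75.7) at resolution. Plateau was 6.28-fold below peak (6.05 to 6.52) and resolution 8.49-fold below baseline. Neutrophil markers moved with the baseline value: all 10 were detected, and their summed level was 41868 CPM at baseline, 1119 at peak, 332 at plateau and 1659 at resolution. Neutrophil-like cluster 18 held 74.2% of the baseline Chil3 UMIs. Without the clusters of other named types, Chil3 read 189 CPM at baseline, 688 at peak, 104 at plateau and 63.5 at resolution, so that peak was then 1.86 above baseline on the log2 scale instead of 0.06. At peak, Chil3 read 1425 CPM in monocyte-like cluster 9, 1038 in unnamed cluster 3 (Dmkn, Gpat3, Thbs1) and 791 in monocyte-like cluster 5 (Cxcl10, Ifit2, Rsad2). NK-like and B-like cells together read 223, 317, 196 and 0 CPM of Chil3 from baseline to resolution, from 35, 66, 6 and 0 UMIs. In 1 cell lay 71.4% of these UMIs at baseline and 51.5% at peak. What lies behind Chil3 UMIs in these cells was not tested. Chil4, the close copy of Chil3, had 1 UMI at baseline and none in the other libraries.

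**Figure D2:**
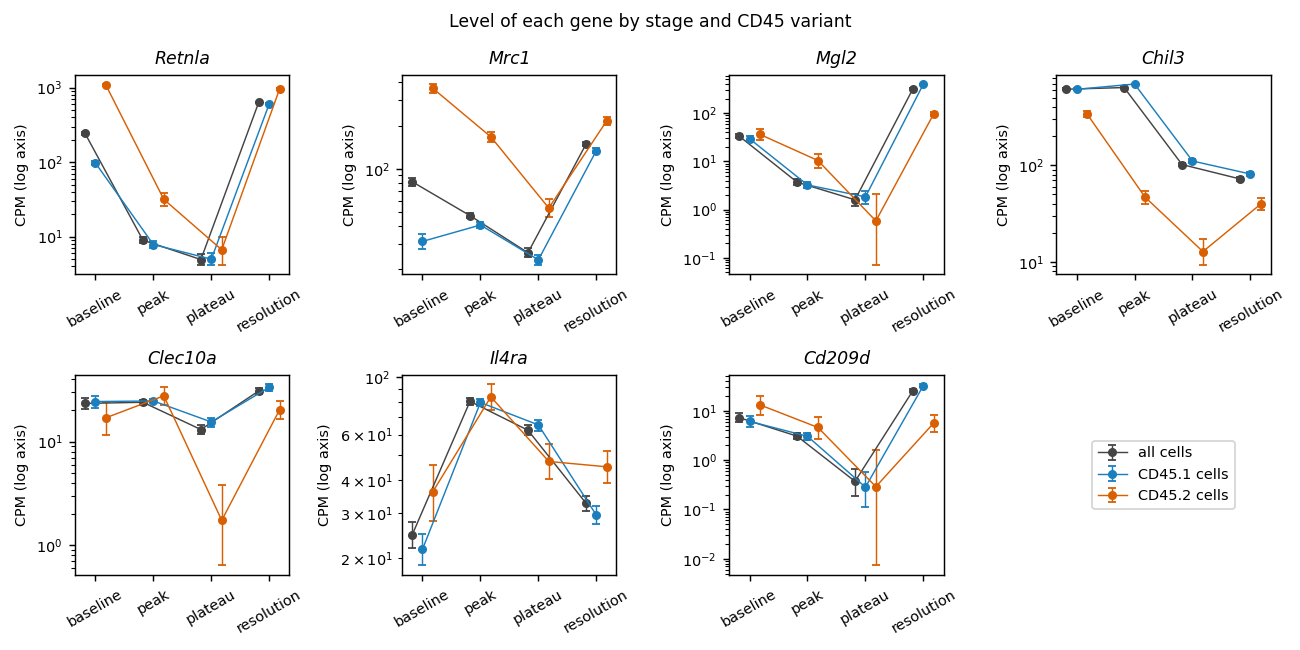
Level of each member (y axis, CPM, log scale) at the 4 stages (x axis), as points for all cells, CD45.1 cells and CD45.2 cells with exact Poisson 95% intervals. Over all cells Retnla, Mgl2 and Cd209d are lowest at plateau and highest at resolution, Il4ra is highest at peak, and Chil3 is lowest at resolution. In CD45.2 cells Chil3 is lowest at plateau, and Cd209d and Retnla are higher at baseline than at resolution.

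Counted over the 7 genes, peak against baseline had 1 member at least 2-fold higher (Il4ra), beside 8.52% of all 13084 genes tested, and 3 lower (Retnla, Mgl2, Cd209d), beside 12.6%. Plateau against peak had none higher, beside 15.1% of genes, and 3 lower (Mgl2, Chil3, Cd209d), beside 5.07%. Resolution against plateau had 5 higher (Retnla, Mrc1, Mgl2, Clec10a, Cd209d), beside 13.4%, and none lower, beside 10.5%. Resolution against baseline had 3 higher (Retnla, Mgl2, Cd209d), beside 11.8%, and 1 lower (Chil3), beside 5.61%. Retnla, Mrc1 and Clec10a at plateau against peak fell short of the 2-fold limit, at -0.86, -0.86 and -0.87 on the log2 scale. The median log2 ratio of all genes was -0.13, 0.3, 0.06 and 0.18 in these 4 contrasts. Scaling by trimmed means (TMM) moved that median by 0.20 and -0.25 in the first pair of contrasts, and the share of 2-fold genes that were higher from 40.3% to 52.4% for peak against baseline and from 74.8% to 53.8% for plateau against peak. It also moved that share from 67.7% to 57.1% for resolution against baseline. Under it 6 members were at least 2-fold lower at plateau than at peak.

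Summed over all cells of each CD45 variant, Retnla and Mrc1 stood higher in CD45.2 cells and Chil3 in CD45.1 cells of every library. For Retnla and Mrc1 this did not hold in every library without clusters 6 and 11, as given below. Retnla read 97.6 CPM in CD45.1 and 1085 in CD45.2 cells at baseline, 7.84 and 31.7 at peak, 4.99 and 6.67 at plateau, and 606 and 967 at resolution. The intervals overlapped at plateau and nowhere else, but they do not cover how few cells held the UMIs. In CD45.2 cells 1 barcode held 54.7% of the Retnla UMIs at baseline, 76.4% at peak and 56.5% at plateau. In CD45.1 cells the highest barcode held 44.5%, 29.3% and 44.7%. At resolution, 9.75% (8.69% to 10.9%) of thinned CD45.1 cells and 11.9% (9.49% to 14.6%) of CD45.2 cells held a Retnla UMI, with overlap. Mrc1 read 31.3 and 363 CPM at baseline, 40.7 and 167 at peak, 23.3 and 53.4 at plateau, and 134 and 216 at resolution, with no overlap of intervals. Chil3 was the reverse: it read 613 in CD45.1 and 341 in CD45.2 cells at baseline, 696 and 47 at peak, 111 and 12.8 at plateau, and 81.4 and 39.9 at resolution. Neutrophil markers were in both variants at baseline, with summed levels of 39086 CPM in CD45.1 and 25706 in CD45.2 cells. Without the neutrophil-like cluster, Chil3 read 219 and 17.6 CPM at baseline, 688 and 46.7 at peak, 111 and 12.8 at plateau, and 68.6 and 15.9 at resolution.

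Over the 4 libraries, with the library as a block, edgeR's quasi-likelihood test called 2 of the 7 members at an adjusted p of at most 0.05. Chil3 was higher in CD45.1 cells by 2.39 on the log2 scale (SE 0.58, adjusted p = 0.033), beside 9.95% of 11498 genes called higher. Without other named cell types this difference was 3.36 (adjusted p = 0.00366). Mrc1 was lower in CD45.1 cells, at -1.62 (SE 0.42, adjusted p = 0.0404), beside 9.85% called lower. With either the peak or the plateau library left out, neither kept its call: Mrc1 was at -1.53 (adjusted p = 0.141) and -1.78 (0.0596), and Chil3 at 1.83 (0.0623) and 2.13 (0.0753). Without barcodes carrying both CD45 antibodies Mrc1 was at -1.54 (adjusted p = 0.0605) and Chil3 at 2.72 (adjusted p = 0.0555). Retnla, at -1.48 (SE 0.49), missed the threshold with an adjusted p of 0.0763, but passed it with DESeq2 (0.00826) and without the filter on low counts (0.0376). Without the barcodes with the most UMIs of each member, a setting chosen after seeing the data, its difference was -0.67, Mrc1's adjusted p was 0.0628, Mgl2 was at 1.5 (adjusted p = 0.0501) and Cd209d at 1.44. Clec10a (1.01, SE 0.41) was not called either, and passed with DESeq2 (adjusted p = 0.0379) and without the filter on low counts (0.0388). Mgl2 (0.51, SE 0.60), Cd209d (0.56, SE 0.65) and Il4ra (-0.01, SE 0.22) were not called in any setting run.

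The variant difference of the remaining members changed side between libraries. Mgl2 read 29.4 CPM in CD45.1 and 36.2 in CD45.2 cells at baseline and 3.24 and 10.4 at peak. At plateau it read 1.83 and 0.58, the latter from 2 UMIs, and at resolution 401 and 97.4. Cd209d read 6.12 and 13.2 at baseline, 3.05 and 4.61 at peak, 0.284 and 0.29 at plateau, and 32.6 and 5.69 at resolution. At resolution, then, both were higher in CD45.1 cells, by 2.04 and 2.49 on the log2 scale, while at baseline and peak both read higher in CD45.2 cells. The latter rests on few cells: at peak 1 CD45.2 cell held 80.6% of the 36 Mgl2 UMIs and 75% of the 16 Cd209d UMIs of its group. The counting interval of the log2 ratio included 0 for Mgl2 at baseline (-0.69 to 0.11) and for Cd209d at peak (-1.34 to 0.25). Clec10a was higher in CD45.1 cells of 3 libraries, and Il4ra of 1.

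**Figure D3:**
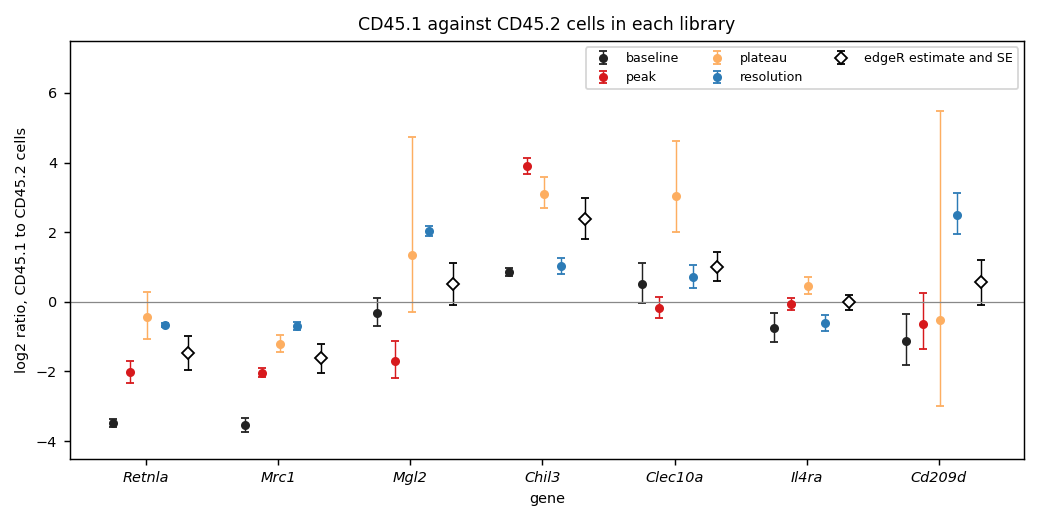
Log2 ratio of CPM in CD45.1 over CD45.2 cells (y axis) for each member (x axis), 1 point for each library with its 95% counting interval, and the edgeR estimate with its SE as a diamond. All 4 Mrc1 and Retnla points lie below 0 and all 4 Chil3 points above it, and the Mgl2 and Cd209d points of resolution lie at 2.04 and 2.49.

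Resolution against baseline was also read in each variant alone, and the difference between the variants was not tested. In CD45.1 cells 4 members were at least 2-fold higher at resolution (Retnla, Mrc1, Mgl2, Cd209d), beside 15.3% of genes, and Chil3 was lower, beside 6.32%. In CD45.2 cells Mgl2 alone was at least 2-fold higher, beside 3.33% of genes, and Chil3 and Cd209d were lower, beside 2.18%. Retnla was at -0.17 on the log2 scale in CD45.2 cells, a ratio that depends on 1 baseline barcode with 1083 of 1980 UMIs (54.7%). Neutrophil markers moved with the CD45.2 fall of Chil3, at a summed 25706 CPM at baseline and 2123 at resolution, and without the neutrophil-like cluster Chil3 read 17.6 and 15.9 CPM. Macrophage markers moved with the variants: all 15 were detected in each variant and library except Timd4 in CD45.1 cells at plateau, and their summed level was 1183, 951, 1893 and 6164 CPM in CD45.1 cells against 21846, 4750, 5062 and 17069 in CD45.2 cells, from baseline to resolution. Fewer cells of a type and less RNA in each cannot be told apart in sums over all cells. Their part in the variant differences was not tested beyond the clusters described next.

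Cells were clustered without the 7 genes, and 23 clusters resulted, so a member's level in a cluster did not help to form it. Cluster 6, with 939 cells of which 899 came from resolution, was led by Rnase2a, Mmp12, Aqp3, Ccl17 and Mucl1 and met no cell type's marker rule. It held 80.1% of all Mgl2 UMIs (918 CPM), 65.8% of Retnla (1688 CPM), 48.2% of Cd209d (57.4 CPM) and 20.9% of Mrc1 (218 CPM). At resolution 792 of its cells were CD45.1 and 64 CD45.2. Without cluster 6, Mgl2 at resolution read 71.4 CPM in place of 321, and Retnla read 237 in place of 641. Both still stood above plateau, where without the cluster they read 1.42 and 2.68.

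Cluster 11, macrophage-like by 13 of 15 markers and led by Vsig4, Timd4, Lyve1, S100b and Cbr2, was made mostly of CD45.2 cells. Of its 611 cells, 125 came from baseline and 118 of those were CD45.2. It held 28.9% of Mrc1 UMIs (561 CPM), and at baseline 61.7% of Mrc1 and 60.5% of Retnla. The baseline Retnla of this cluster, 1560 CPM, came to 61.3% from 1 barcode. At peak its Mrc1 level was 1405 CPM, over 58 cells. Chil3 read 3.64 CPM there. Without clusters 6 and 11, Retnla read 30.8, 5.21, 1.99 and 175 CPM from baseline to resolution, and Mrc1 28.2, 36.1, 18.9 and 78.8. By variant, Retnla then read 21.8, 5.55, 2.29 and 200 CPM in CD45.1 cells and 143, 2.57, 0.633 and 128 in CD45.2 cells. It was higher in CD45.2 cells at baseline only, and the intervals overlapped at peak and plateau. Mrc1 then read 22.9, 37.7, 19.1 and 77.9 CPM in CD45.1 cells and 104, 24.1, 21.5 and 91.1 in CD45.2 cells. Its intervals overlapped at plateau and resolution, and at peak it was higher in CD45.1 cells.

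The other macrophage-like cluster, cluster 2, led by Aqp1 and Fxyd2 and with 1187 of its 1338 cells at resolution, read 147 CPM of Mrc1 and 130 of Retnla. Cluster 14, led by the cell division genes Aspm, Ccna2 and Hmmr, read 926 CPM of Retnla and 424 of Mgl2 at resolution. Cluster 15, type 2 dendritic-like and led by Cd7, Klrd1, H2-Oa, Cd209a and Gpr171, read 305 CPM of Clec10a (24.9% of its UMIs), 118 of Cd209d and 153 of Mgl2. At peak this cluster held 62.2% of the Cd209d UMIs, and at resolution it read 246 CPM of Cd209d. The small unnamed cluster 22 of 27 cells, with the mast cell genes Mcpt4 and Tpsb2 among its leading genes, read 522 CPM of Clec10a. Neutrophil-like cluster 18 read 3204 CPM of Chil3. Cluster 12, unnamed and shallow at 0.227 of its libraries' median depth, read 613 CPM of Retnla and 245 of Mgl2.

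**Figure D4:**
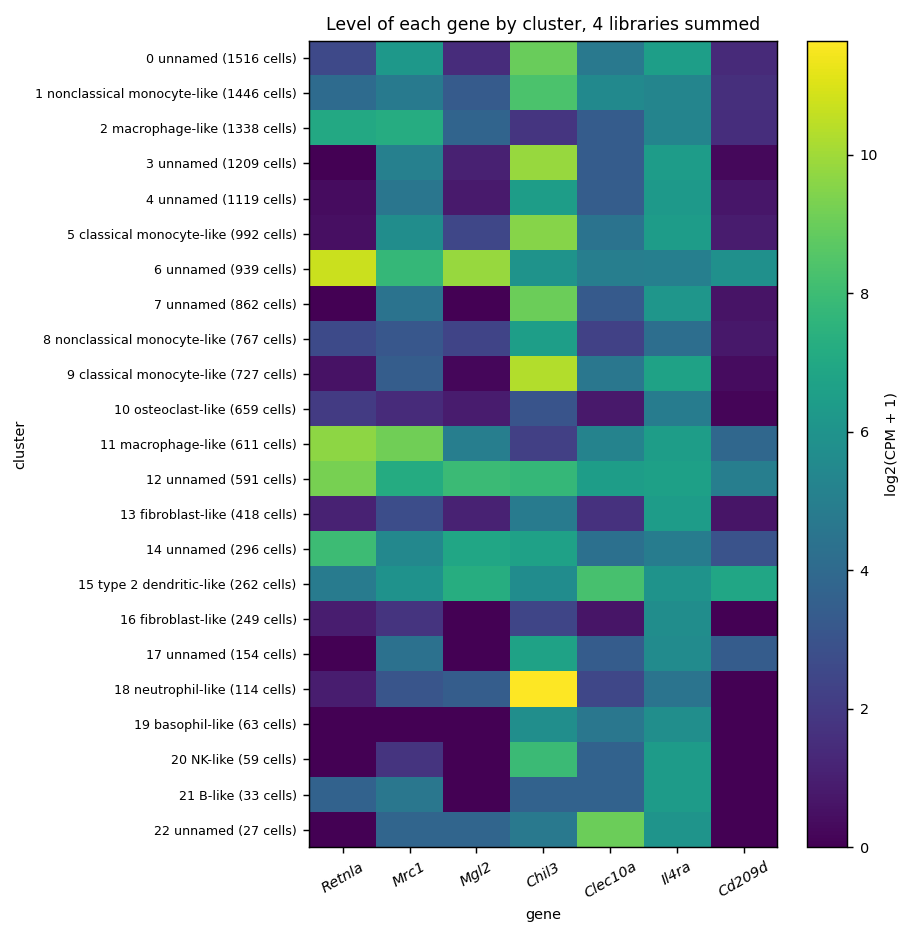
Level of each member (columns) in each cluster (rows, with its name and number of cells), as colour for log2(CPM + 1) over all libraries. Cluster 6 is high in Retnla, Mgl2 and Cd209d, cluster 11 in Mrc1 and Retnla, cluster 15 in Clec10a and Cd209d, and Chil3 is high in cluster 18 and in the monocyte-like clusters 5 and 9.

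Within clusters the variants still differed at resolution, in both directions. In cluster 6, Retnla read 1350 CPM in CD45.1 and 4591 in CD45.2 cells, while Mgl2 read 974 and 636 and Cd209d 61 and 25.3. In cluster 11, Mrc1 read 767 CPM in CD45.1 and 326 in CD45.2 cells, against the direction over all cells, and Retnla read 492 and 756. In cluster 2 the variants stood closer, at 109 and 153 for Retnla and 120 and 135 for Mrc1. These are single values of 1 library with no replicate check. When every cluster with enough cells of both variants was given the same weight, the mean difference over libraries was -0.33 for Mrc1, 0.22 for Chil3 and -1.26 for Retnla, against -1.62, 2.39 and -1.48 from the test over all cells. This weighting had 1 cluster at baseline (2) and 1 at peak (10), 4 at plateau and 6 at resolution, and its values went both ways: 1.00, -2.38, -0.32 and 0.40 for Mrc1 and -2.40, 0.06, 3.43 and -0.21 for Chil3, from baseline to resolution.

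Some pairs of members were detected in the same cells more often than apart, and others were not. Over all libraries in cells thinned to 2000 UMIs, Mgl2 was detected in 48% of the 433 cells with Retnla (43.2% to 52.9%) and in 4.27% of the others. Mrc1 was detected in 41.6% of Retnla cells and 9.26% of the others. Chil3 was in 2.54% of Retnla cells and 25.3% of the others, and Il4ra in 6.33% of Mgl2 cells and 11.2% of the others. Stage enters these shares, so resolution is given alone: Mgl2 was in 51.3% of 380 Retnla cells and 13.3% of the others, and in 75.7% of 107 Cd209d cells and 15.3% of the others. Mrc1 was in 40.8% of the Retnla cells of resolution and 15.9% of the others. Clec10a (5% and 5.22%) and Cd209d (2.63% and 2.65%) were about as common in Retnla cells as in the others there. Chil3 at resolution was in 2.37% of Retnla cells and 6.5% of the others. Il4ra was in 5.72% of Mgl2 cells and 6.4% of the others at resolution. For that pair the shares were 15.2% and 5.55% at baseline and 9.52% and 14.1% at peak, from 33 and 21 Mgl2 cells. Cells with at least 4 of the 7 members numbered 6, 7, 1 and 31 from baseline to resolution, or 0.607%, 0.127%, 0.0416% and 0.768% of the thinned cells.

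The CD301b antibody gave a protein readout of Mgl2. It read 18.8 UMIs per 10000 others at baseline, 12.4 at peak, 10 at plateau and 35.9 at resolution, the same order as the RNA. Relative to the antibodies against lymphocyte proteins, however, it read 0.437, 0.697, 0.624 and 0.33, with resolution the lowest, so the order of the stages depended on what the antibody was scaled by. Within resolution, cells with no Mgl2 UMI held a mean of 0.878 CD301b UMIs, those with at least 1 held 4.85 and those with at least 5 held 7.45. At baseline this relation was weak, at 2.85 and 3.51 for cells without and with an Mgl2 UMI. The correlation across cells, taken as for CD124, was -0.0155 at baseline, 0.0296 at peak, 0.0536 at plateau and 0.313 at resolution. CD301b was higher in CD45.1 than CD45.2 cells in 4 of 4 libraries, with a mean log2 difference of 0.88 (SD 0.53, n = 4) and the exact two-sided paired permutation p was the smallest that 4 libraries allow, which is above 0.05. CD124 was higher in 2 of 4, with a mean of -0.11 (SD 0.96, n = 4, exact permutation p = 0.875).

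**Figure D5:**
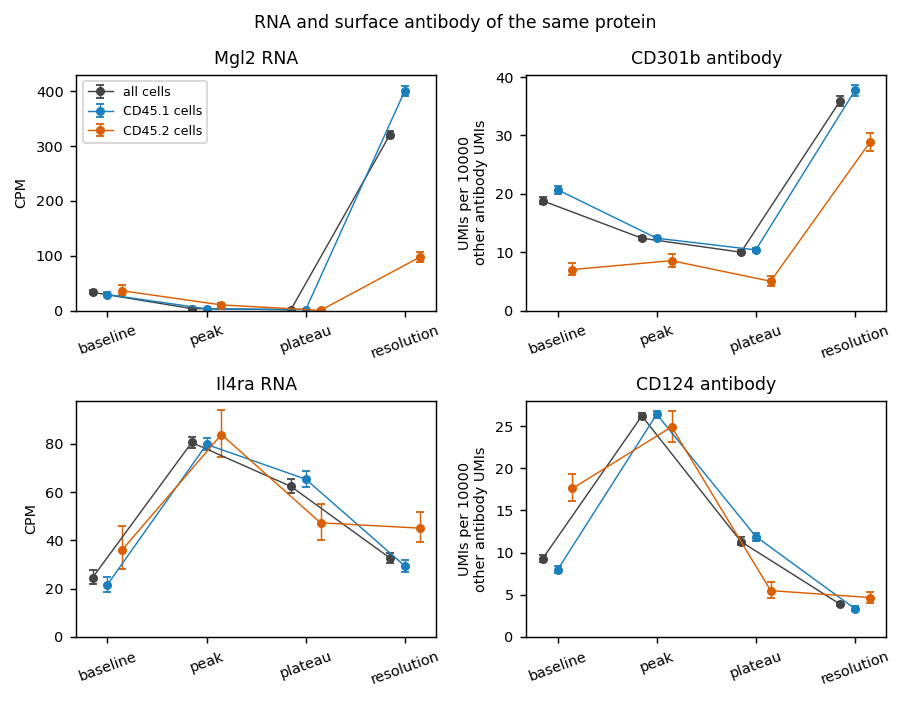
Mgl2 and Il4ra RNA (left, y axis in CPM) beside the CD301b and CD124 antibodies (right, y axis in UMIs per 10000 UMIs of other antibodies) at the 4 stages (x axis) for all, CD45.1 and CD45.2 cells, with exact Poisson 95% intervals. CD124 is highest at peak, at 26.2 over all cells, and CD301b at resolution, at 35.9.

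Other genes of the pathway were read from lists by role, with the share of all genes at the same fold given above for each contrast. Ligands were scarce. Il4 read 0.669 CPM at baseline, 1.19 at peak and 0.0738 at resolution, and was listed at 0 at plateau. It was a passing marker of basophil-like cluster 19, whose 63 cells were all at peak, and of unnamed cluster 22 with 27 cells. Il13 read 2.93, 1.31, 0.0338 and 1.85 CPM. Of 5 ligand and type 2 cytokine genes tested, 2 were at least 2-fold higher and 2 lower at peak than at baseline, and 4 were lower at plateau than at peak. Of 4 tested at resolution, 2 were higher and 2 lower than at plateau, and none differed by 2-fold from baseline. Il10, an anti-inflammatory cytokine, read 1, 6.25, 6.73 and 1.99 CPM. Il33 read 2.01, 11, 4.8 and 1.88 CPM, and Tslp 3.43, 0.75, 0.169 and 4.95, both known as cytokines of barrier and stromal cells.

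Few receptor and signalling genes passed 2-fold. Of 15 tested, 1 was higher and none lower at peak against baseline, and 2 of 16 were higher at plateau against peak. At resolution, 1 of 15 was higher and 1 lower against plateau, and 4 of 15 were higher against baseline. Cish, an inhibitor of cytokine signalling, read 5.85, 7.31, 4.66 and 14.2 CPM. The related Socs2 read 4.85, 5.67, 18.4 and 12, and Socs3 119, 226, 227 and 256. Ptpn6, a phosphatase, read 228, 180, 144 and 136 CPM. Of the kinases, Jak3 read 3.76, 8.11, 5.68 and 2.77 and Jak2 30.1, 49.9, 26.7 and 44.3, and the adaptor Shc1 read 26.7, 21, 22.4 and 29.6. Among 12 transcription factors linked to alternative activation, 1 was higher and 3 lower (Irf4, Pparg, Batf3) at peak against baseline, and 1 was higher at plateau against peak. Against plateau, 6 were higher at resolution and 1 lower, and against baseline 5 were higher and 1 lower. Irf4, which works downstream of the interleukin-4 receptor, read 8.45, 2.47, 3.72 and 41.2 CPM. Pparg, a lipid-sensing nuclear receptor, read 17.9, 3.76, 2.97 and 11.4. Its coactivator Ppargc1b read 3.51, 9.66, 36.9 and 10.5, and Nfil3 216, 194, 103 and 107. The most abundant were Cebpb, with 2715, 2818, 1822 and 1600 CPM, and Klf4, with 595, 477, 362 and 755.

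The 28 other target genes of alternative activation did not move as 1 group. At peak against baseline 11 of 27 tested were at least 2-fold higher and 11 lower. Il1rn, the interleukin-1 receptor antagonist, read 8.03 CPM at baseline, 151 at peak, 107 at plateau and 6.72 at resolution. Ccl17, a chemokine for T cells, read 21.2, 0.102, 0.406 and 194 CPM. Cdh1, the adhesion protein E-cadherin, read 0.0836 (1 UMI), 3.85, 1.62 and 5.24 CPM, and the lipid oxygenase Alox15 read 2.59, 0.63, 0.0676 and 11.5. Chst7 read 2.34, 2.03, 7.17 and 3.36. The most abundant of the list were Fn1, fibronectin, with 952, 1373, 2496 and 1538 CPM, and F13a1, a clotting factor subunit, with 402, 370, 200 and 192. Rnase2a, a secreted ribonuclease, read 3.09 CPM at baseline, was listed at 0 at peak, and read 0.203 at plateau and 118 at resolution. At plateau against peak 7 of 25 were higher and 4 lower, and at resolution against plateau 11 of 27 were higher and 6 lower. At resolution against baseline 12 were higher and F13a1 was lower. The list's median log2 ratio in the 4 contrasts was -0.23, 0.01, 0.42 and 0.65, beside -0.13, 0.3, 0.06 and 0.18 of all genes.

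Relatives of the members did not follow them as families. Of 3 chitinase-like and resistin-like relatives tested, 1 was higher and 2 lower at peak against baseline, and 2 were lower at plateau against peak. Against plateau the 1 tested was lower at resolution, and against baseline both that could be tested were. Retnlg, the resistin-like gene of neutrophils, read 69.1, 8.84, 3.08 and 0.295 CPM. The chitinase-like Chil1 read 17.1, 0.562, 0.27 and 0.48 CPM, and resistin, Retn, was scarce outside peak, at 0.167, 4.97, 0.0338 and 0.111. Of the C-type lectins, 4 of 15 were higher and 3 lower at peak against baseline, and 1 of 14 was higher and 3 lower at plateau against peak. At resolution 3 of 13 were higher and 4 lower against plateau, and 3 were higher and 1 lower against baseline. Clec4n, the fungal sensor Dectin-2, read 25.8, 178, 216 and 33.2 CPM, higher at peak and plateau than at baseline and resolution. Asgr2, a subunit of the asialoglycoprotein receptor, read 2.84, 0.29, 0.135 and 12.3 CPM, and Mrc2 2.43, 9.11, 32.4 and 5.24. The scarcer Clec9a read 0.669, 0.443, 0.135 and 0.554, and Cd209f 1.84, 0.937, 1.83 and 0.332. The most abundant lectins were Clec4e, with 169, 559, 262 and 153 CPM, and Clec4a2, with 183, 292, 333 and 207. Of the classical activation genes 6 of 14 were higher and 1 lower at peak against baseline, and none was higher and 3 lower at plateau against peak. At resolution 3 of 13 were higher and 4 lower against plateau, and 3 of 12 higher and 2 lower against baseline. Il1b, the inflammatory cytokine, read 957, 2865, 1715 and 581 CPM. The chemokines Cxcl10 and Cxcl9 were highest at peak, at 43.5, 292, 39.9 and 15.2 and at 0.167, 2.04, 0.304 and 0.48. Ptgs2 read 34.5, 159, 106 and 19.9, Tnf 49.2, 52.1, 41.6 and 125, Ccr7 1.34, 0.647, 0.575 and 1.85, and Il12a 0.836, 0.221, 0.338 and 1.81 CPM.

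By CD45 variant, edgeR called 5 of 25 target genes higher in CD45.1 cells (Il1r2, Il1rn, Flt1, Ccl17, Ear2) and 8 lower (Cd36, Cd163, Folr2, Slc7a2, Igf1, Ccl8, Ch25h, Chst7), beside 9.95% and 9.85% of all genes, which hold for the next lists too. Ccl17 was higher by 3.44 on the log2 scale (SE 0.26, adjusted p = 0.00271) and Ch25h, a cholesterol hydroxylase, was lower at -4.65 (SE 0.71, adjusted p = 0.00774). Of 12 transcription factors 5 were higher and 1 lower, with Pparg at 2.75 (SE 0.38, adjusted p = 0.00574). Maf was the lowest at -1.35 and not called (adjusted p = 0.0841 by edgeR). Of 15 receptor and signalling genes 5 were higher, led by Cish at 1.68, and Socs2 was lower at -1.32. From the list of ligands and type 2 cytokines only Il10, Il33 and Tslp were tested, and Tslp was lower. Il4 and Il13 were not tested between the variants. Il13 read 0 CPM in CD45.1 and 19.2 in CD45.2 cells at baseline, 1.11 and 5.19 at peak, 0.0406 and 0 at plateau, and 2.47 and 0.438 at resolution. Lectin relatives were higher in 8 of 11, led by Clec4b1 at 2.83 (adjusted p = 0.00612 by edgeR), and lower in 1, the mannose receptor relative Mrc2 (-2.05, adjusted p = 0.00779). Classical activation genes were higher in 3 of 10, led by Il1b at 2.92 and with Il6 lowest at 0.17, and lower in none by edgeR, where no tested gene of the list was lower at an unadjusted p under 0.05 either. Retnlg, the single chitinase-like or resistin-like relative tested, was at 1.02 (SE 0.46, adjusted p = 0.157 by edgeR).

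The genes most like each member were found over 44 sums of a cluster within a library, by the correlation of log2 CPM among 11307 genes. The sums of a library share its depth and free RNA. Mgl2 was most like Hepacam2 (0.90), Irf4 (0.90), Aqp3 (0.89), Trerf1 (0.83) and Ccl17 (0.82). Retnla was most like Gfra2 (0.85), Cd163 (0.83), Gpr155 (0.81), Mgl2 (0.81) and Qpct (0.80). Mrc1 was most like Cd163 (0.90) and Snx5 (0.87), followed by Lyz1, Lacc1 and Gm10134. Chil3 was most like Mcemp1 (0.88), Vill (0.88), Cd300lf (0.87), F10 (0.86) and Trem1 (0.84). Clec10a was most like Fgd2 (0.83), Cd209a (0.83), Kmo, Slamf7 and Bex6, and Cd209d like Siglecg (0.82), Mgl2 (0.81), Klrb1b, H2-Ob and Klrd1. Il4ra had the weakest top values, Vcan (0.79), Jmjd1c, Gab1, Hif1a and Sbno2. Among the members, Retnla and Mgl2 and likewise Mgl2 and Cd209d correlated at 0.81, Retnla and Mrc1 at 0.74, Clec10a and Cd209d at 0.69, and Retnla and Chil3 at -0.37. The names depended on the measure: by Spearman correlation, 4 of the 5 were shared for Il4ra, 3 for Chil3, 2 for Retnla, 1 each for Mrc1, Mgl2 and Clec10a, and 0 for Cd209d.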

How the data were processed

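RNA and 92 antibodies were counted in the same cells of 4 libraries. The deposited files hold unnormalized UMI counts per feature and barcode, made by the authors with Cell Ranger 6.1.2, per the file headers, on mm10, per the submitters' processing notes, which also list Seurat 4.4.0 without a role. Kept barcodes had 300 genes or more and no more than 10% of UMIs from mt- genes. Variants were set by log2((CD45.1+1)/(CD45.2+1)) of antibody UMIs, at least 1 or at most -1. The call has limits as a mark of origin. In fibroblast-like cluster 13, 17, 52, 13 and 68 cells were called CD45.1 from baseline to resolution, and 11, 12, 0 and 55 CD45.2. What lies behind these calls was not tested. Stage ratios were log2 ratios of CPM with 0.5 counts added, over genes with at least 30 UMIs, called at 2-fold. Variants were tested on 8 sums (edgeR 4.0.16, quasi-likelihood, library as block, Benjamini-Hochberg over all genes). Both variants of a library come from the same sorted sample, so the library is the pair. Clusters were built with scanpy 1.11.5 on 2000 variable genes without the members (30 components, 15 neighbours, Leiden resolution 0.8). A cluster was called X-like when at least 3 markers of X passed and no fewer passed than failed. X also needed more passing markers than any other type, with further conditions on leading genes and depth. Markers of monocytes, macrophages, osteoclasts, neutrophils, dendritic cells, basophils, lymphocytes and fibroblasts were among the lists. No doublet caller was run. As an alternative, barcodes where each CD45 antibody reached 10 UMIs were left out.

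Members and gene lists were chosen with earlier results of these data known. Besides the members, the text names for each list the 2 genes with the highest levels and those with the largest difference in each contrast, and the genes of a called list, the 5 genes most like each member and the 5 leading genes of a cluster. Intervals cover counting error. Whether a library pools several animals is unknown, so p-values measure the spread between these libraries. Code was tested on simulated data.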

Additional observations from a re-analysis of the deposited data

Results flagged for a closer look

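Cd209d stood apart in 1 library: its log2 ratio of CD45.1 to CD45.2 was 2.49 at resolution, farther from the other libraries than 4 values usually lie. Chance flags about 1 in 20 such groups, and 7 members were examined. In the plateau library the ratio rests on 8 Cd209d UMIs.

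Several members moved in opposite directions in the variants between the same stages, on the log2 scale, and the difference was not tested in any of them. Retnla at resolution against baseline was at 2.63 in CD45.1 and -0.17 in CD45.2 cells. Mrc1 was at 0.38 in CD45.1 and -1.12 in CD45.2 cells at peak against baseline, and at 2.09 and -0.75 at resolution against baseline. Chil3 was at 0.18 and -2.86 at peak against baseline, and at -0.45 and 1.63 at resolution against plateau. Without the neutrophil-like cluster Chil3 in CD45.2 cells read 17.6, 46.7, 12.8 and 15.9 CPM from baseline to resolution, so that peak against baseline then went the same way in both variants. Cd209d was at 2.4 and -1.21 at resolution against baseline. The baseline CD45.2 group holds 190 cells, and 1 of them carried 1083 of its 1980 Retnla UMIs.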

How the results depend on the processing

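Of the members' stage ratios under alternatives, 90 moved by less than counting error, 105 by more, and 1 past 2-fold changed direction: Clec10a at resolution against plateau, -0.03 with each cluster weighing the same. Below 2-fold, Clec10a at peak against baseline went from 0.04 to -0.63 without other named cell types. That weighting gave 1 member lower at peak against baseline, 3 higher and 2 lower at resolution against plateau, and 1 higher and 0 lower at resolution against baseline. Without other named cell types 2 members were higher at peak against baseline. With TMM-scaled totals 6 were lower at plateau against peak. At resolution against plateau 1 was lower with TMM, 2 with a mean over cells, and 1 with 500 genes and 5% mitochondrial UMIs. CD301b there was at -0.92 relative to lymphocyte antibodies.

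The variant test called 2 members and 2276 genes. It called 4 members with no filter on low counts and 4 with DESeq2 (Retnla and Clec10a added), 1 with the stricter barcode filter, 1 without the highest barcodes (Mgl2 at 1.5 and Cd209d at 1.44) and 0 without barcodes carrying both CD45 antibodies (4 at an unadjusted p under 0.05). Without the replicate block, which ignores the pairing by library, 0 members and 513 genes were called (1 member at an unadjusted p under 0.05). Leaving out 1 library gave 0 to 2 members (3 or 4 at an unadjusted p under 0.05) and 936 to 1935 genes, with 0 members without peak and without plateau. With each cluster weighing the same, Mrc1 was at -0.33, Chil3 at 0.22 and Clec10a at -0.64.

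Il4ra, near 0, took the other sign in most settings: 0.11 with no filter and with no replicate block, 0.02 with a CD45 ratio of at least 2, 0.06 without both-antibody barcodes, 0.05 without other types, 0.04 with the stricter filter, 0.07 without the highest barcodes, and -0.18 to 0.18 with 1 library left out (0.13 without baseline). Cd209d was at -0.1 without other types and -0.45 to 1.3 with 1 library left out, and Mgl2 at -0.25 to 1.3, both lowest without resolution. CD124 was at -0.52 to 0.24 with 1 library left out (0.02 without resolution) and 0.22 relative to lymphocyte antibodies. The causes were not tested. No isotype control was found in the panel by name, so that alternative was not run. Counts of Cd209d at plateau limit every ratio that uses it.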
